A study of Mus musculus with 4 samples.

Results

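The 10 genes described here code for Ets family transcription factors that serve epithelial or blood-forming cells, and they were read in medullary thymic epithelial cells (mTECs) of 2 genotypes. They are *Spib*, *Elf3*, *Ehf*, *Elf5*, *Spdef*, *Spi1*, *Spic*, *Ets1*, *Ets2* and *Elf1*, 10 of the 23337 genes in the count table. The group was built around *Spib* and *Elf3* because their measured difference between the genotypes was already known, and the others were added by family and by the tissues they are known from. The leading members were thus selected on the RNA-seq counts of WT against *Sirt6* cKO, and the differences of all 10 are a description. No p-value is printed for a member, and the calls counted below serve only to place the members beside all genes. The list covers 10 of 26 Ets family genes, and the other 16 are described after them. The marker lists and the lists of linked genes were also chosen with earlier results of these data known, and their counts are a description too.

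mTECs were sorted as CD45-EpCAM+UEA-1+Ly51- cells from the thymus of C57BL/6 mice aged 4 weeks, with 2 RNA-seq libraries per genotype. WT mice lacked the *Foxn1*-Cre transgene and were littermates or mice of the same age. *Sirt6* cKO mice carried *Foxn1*-Cre and 2 loxp-flanked *Sirt6* alleles, and GEO's genotype label for their libraries is *Sirt6*-/-. The *Foxn1* promoter drives Cre in thymic epithelium, so blood cells left in a sort keep an intact *Sirt6*. The sources call the 2 samples of a group independent but do not say how many mice each held. Any p-value below thus measures only the spread between these samples.

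The libraries held between 61102704 and 65907745 counts, and between 18608 and 19475 genes had a count. The targeted gene, *Sirt6*, was no lower where the label reads *Sirt6* cKO. It had 622 and 755 counts in WT against 882 and 835 in *Sirt6* cKO, with a log2 fold change of 0.37 (SE 0.32). A count per gene does not show whether the loxp-flanked exons are missing, so it does not settle the genotype, and every direction given for these libraries rests on their labels. The 10 mTEC markers summed to between 11055 and 13088 CPM per library (counts scaled to a common library size with edgeR's TMM method). *H2-Aa*, an MHC class II gene named after its values were seen, made up most of each sum, with between 7123 and 8228 CPM. *Aire*, a gene of mature mTECs, had 351 and 428 CPM in WT and 560 and 664 CPM in *Sirt6* cKO. edgeR's quasi-likelihood test covered 18547 genes, of which 977 were higher and 615 lower in *Sirt6* cKO at an unadjusted p of 0.05, the level the study used to count changed genes. The higher genes made up 61.4% of these calls with TMM, 48.4% with upper quartile scaling and 46.2% with library size alone. At an adjusted p of 0.05 edgeR called 1 gene and DESeq2 called 354.

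Ets proteins bind DNA through a shared domain that in most members reads a GGAA core. Members differ in the cells that make them and in the partners beside them. In mTECs, signals from RANK, CD40 and the lymphotoxin β receptor reach the nucleus through NF-κB, and *Spib* is known as a gene switched on by this route and as a brake on mTEC maturation. *Spib*, *Spi1* and *Spic* form the Spi class, known mainly from B cells, macrophages and dendritic cells. *Elf3*, *Ehf*, *Elf5* and *Spdef* are made mainly by epithelia. *Ets1* is abundant in lymphocytes, while *Ets2* and *Elf1* are made in many tissues.

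The sequences just before the start sites of *Spib* and *Elf3* are shown because the members were gathered around these 2 genes and because NF-κB lies upstream of *Spib*. They come from RefSeq on GRCm38.p6 and are written 5′ to 3′ on the strand of the gene, ending before the first annotated transcript start. Capitals mark matches to the κB consensus, the sequence that NF-κB dimers prefer.
*Spib*, chr7:44532088-44532321, minus strand: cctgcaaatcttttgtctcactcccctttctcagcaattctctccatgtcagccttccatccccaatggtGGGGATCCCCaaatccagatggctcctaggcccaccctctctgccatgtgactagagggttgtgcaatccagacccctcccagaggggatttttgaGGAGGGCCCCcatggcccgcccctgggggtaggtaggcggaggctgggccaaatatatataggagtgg
*Elf3*, chr1:135258569-135258722, minus strand: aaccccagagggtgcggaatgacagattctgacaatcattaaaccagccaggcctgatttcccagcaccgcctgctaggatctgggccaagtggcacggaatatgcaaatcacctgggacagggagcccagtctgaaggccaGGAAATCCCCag

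Over the 250 bases before the start that RefSeq gives, *Spib* held 2 κB matches, 180 and 84 bases upstream, and *Elf3* held 1 match 108 bases upstream. In *Elf3* the RefSeq start lies inside the gene as GENCODE annotates it, and the printed stretch ends at the outer, GENCODE start, right beside the match. A promoter entry was matched for 7 of the 10 members, and the other 5 of these (*Elf5*, *Spdef*, *Spic*, *Ets2* and *Elf1*) held no match. Among all 32851 promoters of the same length, searched on both strands, 7.25% held at least 1 κB match and 1.03% held at least 2. The Ets core GGAA, searched on both strands, occurred once in the *Spib* stretch and 4 times in the *Elf3* stretch, where 1 core overlaps the κB match. This core was in 93.4% of all promoters, with a median of 3 per promoter. A match describes letters in these windows and says nothing of binding in these cells.

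*Spib* was the most abundant Ets factor in each of the 4 libraries, and its level was 2.19-fold higher in *Sirt6* cKO. The gene spans 44525993 to 44532071 on chromosome 7 (GRCm38, the same assembly as mm10), and none of its exon bases overlap another gene. WT libraries 1 and 2 had 33907 and 32819 counts, against 67018 and 74018 for *Sirt6* cKO libraries 1 and 2. Its level was 517 ± 1.62 CPM in WT and 1132 ± 30.8 CPM in *Sirt6* cKO (mean ± SD, n = 2), a log2 fold change of 1.13 (SE 0.14). Both *Sirt6* cKO libraries stood above both WT libraries, in the contrast on which *Spib* was selected, and each SD rests on 2 libraries. The log2 fold change stayed between 1.07 and 1.16 when any 1 library was left out. Counts were made per gene, so transcripts from different *Spib* promoters cannot be told apart.

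*Elf3*, an epithelial Ets factor known from the differentiation of gut and skin epithelium, had the largest log2 difference among the members. It lies on chromosome 1 from 135253575 to 135258568, where 162 bases, 7.31% of its exon bases, overlap the gene *Gm26642* on the other strand. The WT libraries held 5500 and 5848 counts of it, against 15819 and 16999 in the *Sirt6* cKO libraries. The level was 88.0 ± 5.57 CPM in WT and 263.6 ± 2.07 CPM in *Sirt6* cKO (mean ± SD, n = 2), with a log2 fold change of 1.58 (SE 0.17). The groups did not overlap, in the contrast on which *Elf3* was selected, and leaving out 1 library moved the log2 value between 1.5 and 1.65.

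*Ehf*, which is related to *Elf3* and active in many lining epithelia, differed less. It stood at 277 and 256 CPM in WT against 375 and 351 CPM in *Sirt6* cKO (libraries 1 and 2 of each, here and below). The groups did not overlap, with a log2 fold change of 0.45 (SE 0.16) and a range from 0.39 to 0.48 when libraries were left out in turn. *Elf3* stood at 0.679 and 0.807 times the TPM of *Ehf* in the WT libraries and at 1.57 and 1.70 times in the *Sirt6* cKO libraries. TPM, StringTie's length-corrected level, divides reads by transcript length, so that genes can be compared within a library. The order of the pair was thus the opposite in each library of the other genotype.

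The sums of the 10 mTEC markers, mostly *H2-Aa*, were 11471 and 11055 CPM in WT against 12671 and 13088 CPM in *Sirt6* cKO. Of the 10, 3 were called higher and 0 lower, beside 5.27% and 3.32% of all genes tested. *Aire*, which drives tissue-restricted antigens, was among them (log2 fold change 0.65, SE 0.18, edgeR adjusted p = 0.541), as was *Cd80*. The epithelial marker *Epcam* was likewise higher in *Sirt6* cKO, at 758 and 771 CPM in WT and 1003 and 1128 CPM in *Sirt6* cKO (log2 fold change 0.48, SE 0.14, edgeR adjusted p = 0.541). Values were above 0 for 9 of the 10 markers. The other, *Fezf2*, named after its values were seen, had a log2 fold change of -0.2 (SE 0.35). Its level was 672 and 690 CPM in WT against 386 and 803 CPM in *Sirt6* cKO. Ratios to *Epcam*, chosen after these values were seen, set the members against it within each library. *Spib* counts were 68.3% and 66.9% of those of *Epcam* in WT and 111% and 102% in *Sirt6* cKO. *Elf3* counts were 11.1% and 11.9% of those of *Epcam* in WT and 26.1% and 23.5% in *Sirt6* cKO. Against *Epcam*, *Spib* and *Elf3*, which were selected on this contrast, did not overlap between the genotypes. *Ehf* counts were 36.6% and 33.2% of those of *Epcam* in WT and 37.4% and 31.1% in *Sirt6* cKO, so its groups overlapped on this scale. Whether the epithelial share differed, and its part in the values of the members, was not tested.

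*Elf5*, known from the mammary gland and the placenta, was a low gene with 1 library apart. WT 1 had 110 counts and WT 2 had 734, while the *Sirt6* cKO libraries had 156 and 150. The log2 fold change was -1.42 (SE 0.93) over all libraries, -2.25 without WT 1 and 0.55 without WT 2. Its direction was set by WT 2. *Spdef*, a factor of goblet and other secretory cells, had 542 and 524 counts in WT against 656 and 525 in *Sirt6* cKO, and its groups overlapped (log2 fold change 0.21, SE 0.35).

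**Figure D1:**
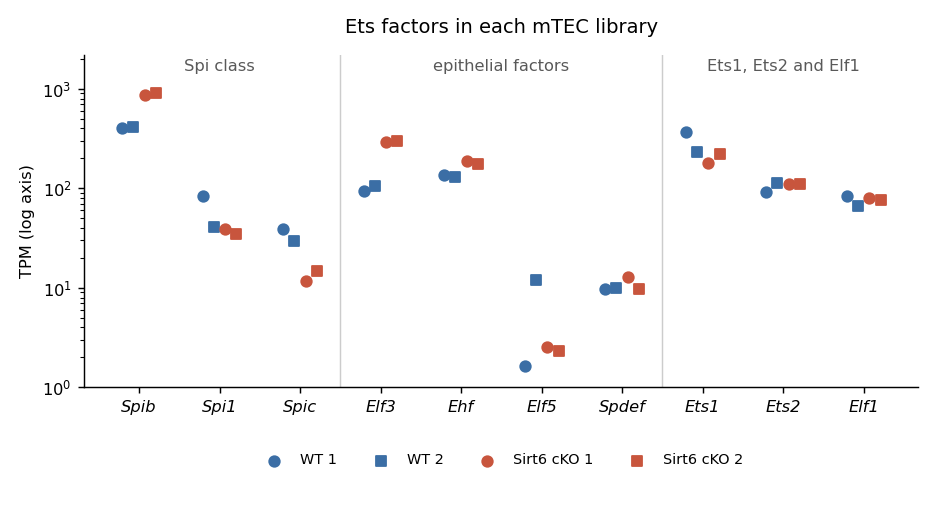
Level of the 10 Ets factors in TPM on a log axis, with 1 point per library. *Spib* is highest in every library, *Elf3* moves from a mean of 99.0 TPM in WT to 295.3 TPM in *Sirt6* cKO, and single WT libraries stand apart for *Elf5*, *Spi1* and *Ets1*.

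The blood-cell members of the Spi class stood lower in *Sirt6* cKO, opposite to *Spib*. *Spic*, known from the red pulp macrophages of the spleen that handle iron, had 1500 and 1080 counts in WT against 413 and 544 in *Sirt6* cKO. Its level was 19.9 ± 4.2 CPM in WT and 7.66 ± 1.16 CPM in *Sirt6* cKO (mean ± SD, n = 2), a log2 fold change of -1.38 (SE 0.34). The groups did not overlap, and the value ranged from -1.17 without WT 1 to -1.58 without WT 2. *Spi1*, which codes for PU.1 and is listed in the table as *Sfpi1*, had 51.1 CPM in WT 1 and 24.4 CPM in WT 2, against 24.0 and 21.1 CPM in *Sirt6* cKO. WT 1 stood apart from the other 3 libraries, and the groups were separated only by the small gap between WT 2 and *Sirt6* cKO 1. The log2 fold change of *Spi1* was -0.74 (SE 0.41) over all libraries and -0.13 without WT 1.

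Most macrophage markers were lower in *Sirt6* cKO as well. The 11 macrophage markers summed to 5712 CPM in WT 1 and 3291 CPM in WT 2, against 2107 and 2231 CPM in *Sirt6* cKO. Of the 11, 7 were higher in both WT libraries than in both *Sirt6* cKO libraries, and 9 were highest in WT 1. The groups did not overlap, in either direction, for 41.9% of all genes tested. Of the markers 6 were called lower and 0 higher, beside 3.32% and 5.27% of all genes tested, and their median log2 fold change was -1.02. Values were below 0 for 10 of the 11. The other, *Itgam*, named after its values were seen, was not called and had a log2 fold change of 0.57 (SE 0.64). Complement genes show the pattern, as *C1qb* stood at 253 and 96.3 CPM in WT and at 57.5 and 61.4 CPM in *Sirt6* cKO. The smallest p-values of the list belonged to *C1qc* (-1.93), *Lyz2* (-1.02), *Cd68* (-1.25) and *C1qb* (-1.56), as log2 fold changes with an edgeR adjusted p of 0.541 each. *Spic* counts were 0.401% and 0.516% of the macrophage sum in WT and 0.325% and 0.380% in *Sirt6* cKO. For *Spi1* the same share was 0.895% and 0.740% in WT and 1.14% and 0.946% in *Sirt6* cKO. On this scale, chosen after the values were seen, *Spic* was lower in both *Sirt6* cKO libraries and *Spi1* was higher in both. *Lyz2* made up most of each sum, with 4647 and 2815 CPM in WT and 1778 and 1906 CPM in *Sirt6* cKO. The scale is thus mainly a ratio to *Lyz2*, and these directions may not hold against other macrophage markers. In sorted bulk samples fewer cells of a type and less RNA per cell cannot be told apart, and the part of macrophage RNA in the values of *Spi1* and *Spic* was not tested.

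B cells and plasmacytoid dendritic cells also make *Spib*, so their markers are given beside it. The 9 B cell markers summed to 556 and 350 CPM in WT and 621 and 347 CPM in *Sirt6* cKO. The 9 dendritic cell markers summed to 281 and 224 CPM in WT and 318 and 258 CPM in *Sirt6* cKO. A large part of each sum was a single gene, named after its values were seen. It was *Fcer2a* for B cells, with 324 and 160 CPM in WT and 400 and 166 CPM in *Sirt6* cKO. For dendritic cells it was *Ccr9*, with 158 and 102 CPM in WT and 187 and 130 CPM in *Sirt6* cKO. Sums without these genes were not computed. Both sums overlapped between the genotypes, and among them *Siglech*, of plasmacytoid dendritic cells and named after its values were seen, had 57.5 and 69.9 CPM in WT and 80.0 and 65.9 CPM in *Sirt6* cKO. Of the B cell markers *Blk* was called higher (log2 fold change 0.87, SE 0.22, edgeR adjusted p = 0.541), while *Pax5*, which defines the lineage and was also named after its values were seen, had 0 and 11 counts in WT against 12 and 0 in *Sirt6* cKO. The part of these cells in the level of *Spib* was not tested.

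**Figure D2:**
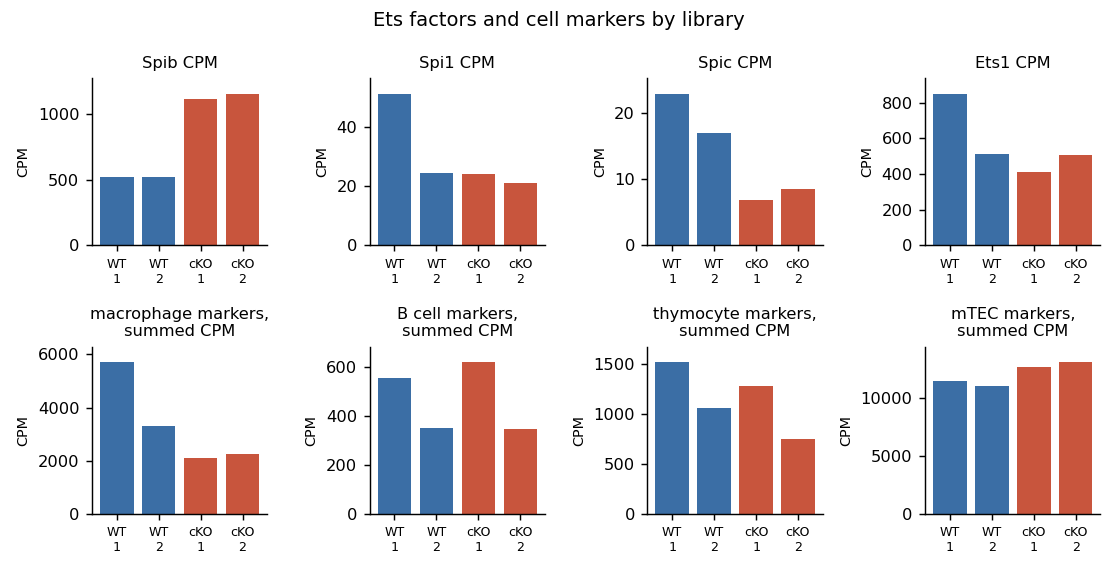
CPM of *Spib*, *Spi1*, *Spic* and *Ets1* and summed CPM of macrophage, B cell, thymocyte and mTEC markers, with 1 bar per library. The macrophage sum is 5712 CPM in WT 1 and 3291 CPM in WT 2, and 2107 and 2231 CPM in *Sirt6* cKO, while the sums of B cell markers overlap between the genotypes.

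In the remaining marker lists 0 genes were called among 5 endothelial, 4 leukocyte, 9 dendritic cell and 12 thymocyte genes. Among all genes tested 5.27% were called higher and 3.32% lower. Of the 6 fibroblast genes *Lum* alone was called, lower at a log2 fold change of -1.14 (SE 0.29), while 4 of the 6 had values above 0 and the list's median was 0.19. Of the 5 cTEC genes *Ly75* alone was called, higher at 1.14 (SE 0.36), while the other 4 had values below 0 and the median was -0.25. Of the 7 tuft cell genes 4 were called lower, with log2 fold changes of -2.99 for *Gnat3*, -1.06 for *Avil*, -0.99 for *Trpm5* and -0.71 for *Plcb2*. Values above 0 were found for 2 of the 7, *Dclk1* (0.36) and *Pou2f3* (0.24), which were not called and are named after their values were seen, and the tuft cell sums were 311 and 356 CPM in WT against 222 and 205 CPM in *Sirt6* cKO. The part of these cells in the values of the Ets factors was not tested.

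*Ets1*, which thymocytes and other lymphocytes make in quantity, had 852 CPM in WT 1 and 515 CPM in WT 2, against 413 and 508 CPM in *Sirt6* cKO. WT 1 was again apart, and the lowest WT library exceeded the highest *Sirt6* cKO library by little. The log2 fold change was -0.57 (SE 0.28) over all libraries and -0.18 without WT 1. The 12 thymocyte markers summed to 1522 and 1060 CPM in WT and to 1285 and 751 CPM in *Sirt6* cKO. WT 1 held the largest of these sums and the groups overlapped, and the part of thymocyte RNA in the level of *Ets1* was not tested. *Ets2* had 9820 and 11539 counts in WT against 10899 and 11485 in *Sirt6* cKO (log2 fold change 0.12, SE 0.18). *Elf1* had 10608 and 8016 counts in WT against 9432 and 9462 in *Sirt6* cKO (log2 fold change 0.08, SE 0.20). The groups of *Ets2* and *Elf1* overlapped, and both genes stood near the middle of the members' order by TPM. *Elf1* shares 4.85% of its exon bases with *Wbp4* on the other strand and 2.51% of its 50-base words with *Gm6649*.

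**Figure D3:**
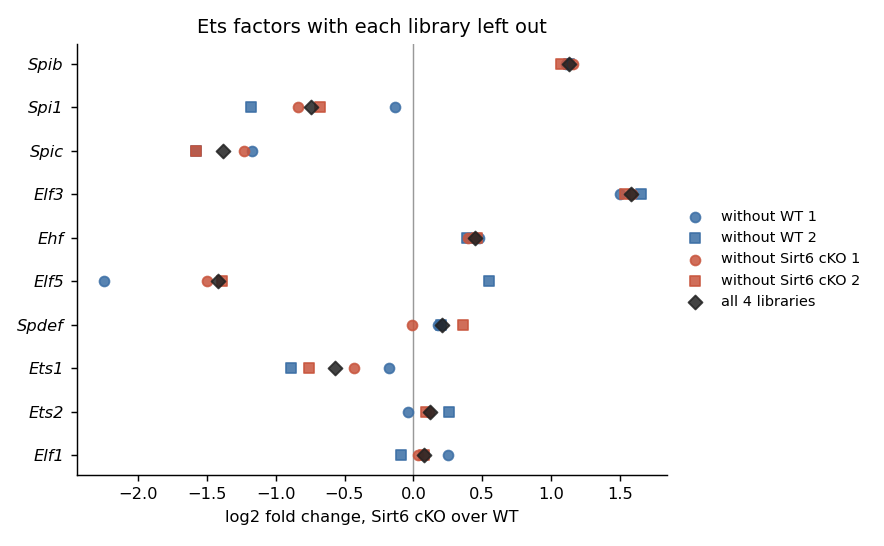
Log2 fold change of each member (*Sirt6* cKO over WT) with all 4 libraries and with each library left out. The values of *Spib* and *Elf3* stay close together, *Spi1* and *Ets1* move toward 0 without WT 1, and *Elf5* spans -2.25 to 0.55.

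All 10 members passed the filter on low counts. At an unadjusted p of 0.05 edgeR called 3 of the 10 higher (*Spib*, *Elf3* and *Ehf*) where 5.27% of all genes tested were called higher, and 1 lower (*Spic*) where 3.32% were. At an adjusted p of 0.05 edgeR called 0 members, and DESeq2 called 4 at the unadjusted level and 3 at the adjusted level (*Spib*, *Elf3* and *Spic*) where 1.83% of its genes were. The groups did not overlap for 6 of the 10, 3 higher and 3 lower, beside 41.9% of all genes tested. Since the contrast chose the members, nothing is read from these counts. The median log2 fold change was 0.10 over the members and 0.00 over all genes tested. With any 1 library left out, 2 members were called higher and *Ehf* was not among them, again values of the contrast that chose the members. The count of members called lower was then 2 without WT 1 (*Spic* and *Elf5*), 3 without WT 2 (*Spic*, *Spi1* and *Ets1*), 0 without *Sirt6* cKO 1 and 1 without *Sirt6* cKO 2. In such fits the single library of a group is assumed to vary like the libraries of the other.

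On the TPM scale the order of the members changed below its first place. In WT the means were 408 TPM for *Spib*, 302.1 for *Ets1*, 134 for *Ehf*, 103 for *Ets2*, 99.0 for *Elf3*, 75.0 for *Elf1*, 62.0 for *Spi1*, 34.6 for *Spic*, 9.95 for *Spdef* and 6.79 for *Elf5*. In *Sirt6* cKO they were 888 TPM for *Spib*, 295.3 for *Elf3*, 201.3 for *Ets1*, 181 for *Ehf*, 111 for *Ets2*, 78.7 for *Elf1*, 37.0 for *Spi1*, 13.2 for *Spic*, 11.4 for *Spdef* and 2.42 for *Elf5*. *Elf3* thus moved from the fifth place to the second, while *Spib* stayed first. Of the 9 neighbouring pairs in this order, 3 overlapped between libraries in WT (*Ets2* with *Elf3*, *Elf1* with *Spi1* and *Spdef* with *Elf5*). In *Sirt6* cKO 2 of the 9 overlapped (*Ets1* with *Ehf* and *Spic* with *Spdef*). *Spib* stood above 98.5% of all genes in WT and 99.5% in *Sirt6* cKO by its mean TPM.

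The share of *Spib* in the Ets family pool was larger in *Sirt6* cKO. The TPM values of the 26 family genes summed to 1607 and 1425 in WT, against 2171 and 2166 in *Sirt6* cKO. *Spib* made up 25.1% and 29.0% of this sum in WT and 40.0% and 41.9% in *Sirt6* cKO. With *Elf3* added, the share was 30.9% and 36.3% in WT and 53.5% and 55.7% in *Sirt6* cKO, so these 2 genes held the larger part of the family's transcripts in both *Sirt6* cKO libraries. *Spib* stood at 1.09 and 1.77 times the TPM of *Ets1* in WT and at 4.85 and 4.06 times in *Sirt6* cKO. *Spi1*, the member closest to *Spib* in class, was 20.6% and 9.87% of *Spib* in TPM in WT and 4.52% and 3.82% in *Sirt6* cKO. No share or ratio above overlapped between the genotypes, and all of them contain the values that chose the members.

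Of the 16 other Ets family genes edgeR called 0 higher and 0 lower at an unadjusted p of 0.05, and 0 at an adjusted p of 0.05. Their median log2 fold change was 0.27, with 11 values above 0 and 5 below. DESeq2 called 2 of the 16 at the unadjusted level, *Etv3* and *Elk3*, and 0 at the adjusted level, and without WT 2 edgeR called 2, *Etv3* and *Etv6*. *Etv3*, named after its values were seen, had 21.2 and 48.4 CPM in WT against 92.5 and 54.7 CPM in *Sirt6* cKO (log2 fold change 1.08, SE 0.48, edgeR adjusted p = 0.616). Its libraries varied more within a genotype than those of *Spib* or *Elf3*. *Elk3*, named for the same reason, had 33.2 and 31.9 CPM in WT against 45.5 and 49.4 CPM in *Sirt6* cKO (log2 fold change 0.54, SE 0.23, edgeR adjusted p = 0.606). *Fli1*, known from blood and endothelium and also named after its values were seen, had 78.4 and 51.5 CPM in WT against 81.0 and 40.7 CPM in *Sirt6* cKO and overlapped between the groups.

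**Figure D4:**
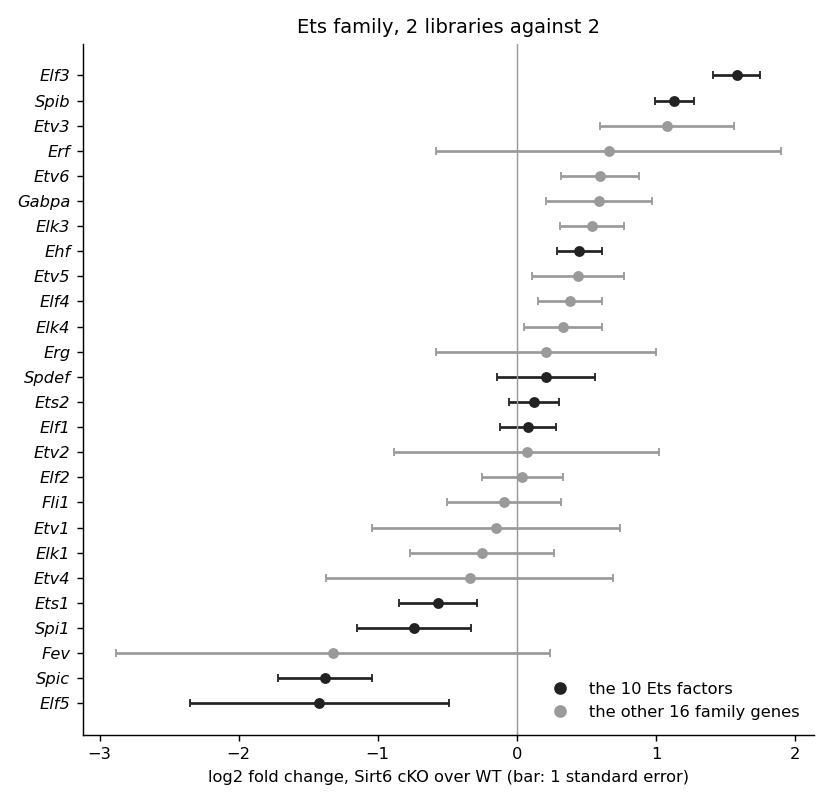
Log2 fold change (*Sirt6* cKO over WT) of the 26 Ets family genes with bars of 1 SE, members and other family genes in different colours. *Elf3* at 1.58 and *Spib* at 1.13 are the highest with short bars, and the longest bars belong to genes of low count such as *Fev*.

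*Spib* lies downstream of the receptors and NF-κB proteins of mTECs, so 14 genes of that route were read beside it. Of the 14, 4 were higher and 0 lower in *Sirt6* cKO at an unadjusted p of 0.05, and 0 passed an adjusted p of 0.05 with edgeR or DESeq2. Over all genes tested 5.27% were called higher and 3.32% lower at the unadjusted level. Their median log2 fold change was 0.40, beside 0.00 over all genes. This list and those below were chosen with earlier results of these data known, so their calls and medians are a description. *Ltbr*, the lymphotoxin β receptor, had 18.6 and 24.1 CPM in WT and 57.8 and 37.3 CPM in *Sirt6* cKO (log2 fold change 1.16, SE 0.33, edgeR adjusted p = 0.541). *Relb*, the partner of p52 in the alternative NF-κB route, had 51.3 and 57.1 CPM in WT and 90.0 and 94.0 CPM in *Sirt6* cKO (log2 fold change 0.76, SE 0.20, edgeR adjusted p = 0.541). The other called genes were *Rel* (0.55, SE 0.17, edgeR adjusted p = 0.541) and *Nfkb2*, which codes for p100 and p52 (0.62, SE 0.22, edgeR adjusted p = 0.55), both values being log2 fold changes. In each of the 4, which were picked by p, the groups did not overlap, as in 41.9% of all genes tested. Without WT 1 none of these 4 genes was called, and the 1 gene of the 14 that was called there was *Cd40*. Without *Sirt6* cKO 1 the count was 1 of 14 (*Relb*), and *Nfkb2* moved to a log2 fold change of 0.37 without WT 1.

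Ets proteins often bind DNA beside a partner. Of 13 such partners 2 were called higher and 0 lower, beside 5.27% and 3.32% of all genes tested. *Irf4*, an interferon regulatory factor that pairs with Spi class proteins on composite sites, had 137 and 109 CPM in WT and 270.5 and 216 CPM in *Sirt6* cKO (log2 fold change 0.99, SE 0.22, edgeR adjusted p = 0.541). DESeq2 called *Irf4* at its adjusted level as well. *Irf8*, the related factor, had 589 and 653 CPM in WT and 779 and 856 CPM in *Sirt6* cKO (log2 fold change 0.40, SE 0.15, edgeR adjusted p = 0.563). The groups did not overlap for either partner, both picked by p, as for 41.9% of all genes tested. *Irf8* was called under 1 of the 12 other settings tried, and without *Sirt6* cKO 2 the partners called were 4, *Irf4*, *Gabpb2*, *Cebpa* and *Gata2*. The median over the 13 was 0.20.

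Genes tied to *Spib* in mTECs and in the microfold cells of gut epithelium did not move one way. Of 12 such genes 2 were higher and 1 lower at an unadjusted p of 0.05, beside 5.27% and 3.32% of all genes tested. With edgeR 0 passed the adjusted level, and the median log2 fold change was 0.10. *Cd80*, a costimulatory ligand of mature mTECs, had 68.9 and 70.2 CPM in WT and 123 and 144 CPM in *Sirt6* cKO (log2 fold change 0.94, SE 0.20, edgeR adjusted p = 0.541). *Tnfrsf11b*, which codes for osteoprotegerin, the decoy receptor for RANK ligand, had 800.2 and 852 CPM in WT and 987 and 1324 CPM in *Sirt6* cKO (log2 fold change 0.48, SE 0.19, edgeR adjusted p = 0.569). Its value dropped to 0.22 without *Sirt6* cKO 2. With all libraries kept, the only other settings that called *Tnfrsf11b* were edgeR without the filter on low counts and edgeR with the replicate number as a block. *Gp2*, a surface receptor of microfold cells, went the other way, with 546 and 550 CPM in WT and 276 and 318 CPM in *Sirt6* cKO (log2 fold change -0.88, SE 0.16, edgeR adjusted p = 0.541). DESeq2 called *Cd80* and *Gp2* at its adjusted level. *Cd80* and *Gp2* were called under each of the 12 other settings tried, while their levels differed in opposite directions.

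Genes tied to *Elf3*, *Ehf*, *Elf5* or *Spdef* in other epithelia were likewise mixed. Of 14 such genes 13 were listed and 12 tested, with a median log2 fold change of 0.05. Among the 12, 3 were called higher and 1 lower, beside 5.27% and 3.32% of all genes tested. *Csn2*, the milk protein β-casein that mTECs make among their tissue-restricted antigens, had 18083 and 18310 counts in WT against 33283 and 26746 in *Sirt6* cKO (log2 fold change 0.78, SE 0.19, edgeR adjusted p = 0.541). *Ptgs2*, which codes for cyclooxygenase-2, had a log2 fold change of 0.57 (SE 0.20, edgeR adjusted p = 0.548) that moved to 0.34 without WT 1. *Nos2*, inducible nitric oxide synthase, had 0.88 (SE 0.35, edgeR adjusted p = 0.58) and 0.48 without *Sirt6* cKO 1. *Agr2*, a protein disulfide isomerase of goblet cells, was lower, with 692 and 702 counts in WT against 194 and 230 in *Sirt6* cKO (log2 fold change -1.67, SE 0.38, edgeR adjusted p = 0.541). The lowest called value in the list thus belonged to a gene of secretory cells, while *Spdef* itself overlapped between the groups. With single libraries left out, the count called was 2 without WT 1 or without *Sirt6* cKO 1 (*Csn2* and *Agr2* both times), 5 without WT 2 and 4 without *Sirt6* cKO 2. *Wap*, named after its values were seen, was not tested, since it had 0 and 0 counts in WT against 9 and 10 in *Sirt6* cKO.

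Genes tied to *Spi1* or *Spic* in blood cells had a median log2 fold change of -0.29. Of the 11, 1 was called higher and 1 lower, beside 5.27% and 3.32% of all genes tested. *Slc40a1*, the iron exporter ferroportin, had 3967 and 2318 counts in WT against 1085 and 1523 in *Sirt6* cKO (log2 fold change -1.22, SE 0.35, edgeR adjusted p = 0.541). It lost its call without WT 1, at -0.83, and without *Sirt6* cKO 1, at -1.03. The count called in this list was 1 without WT 1 or without *Sirt6* cKO 1 and 4 without WT 2 (*Slc40a1*, *Hmox1*, *Csf1r* and *Vcam1*). *Hmox1*, the heme-degrading enzyme that macrophages use beside ferroportin, was higher instead, with 10218 and 9991 counts in WT against 17946 and 18975 in *Sirt6* cKO (log2 fold change 0.92, SE 0.16, edgeR adjusted p = 0.541). *Hmox1* is an iron-recycling gene like *Slc40a1*, and the 2 differed in opposite directions in the same libraries. The 11 macrophage markers, of which *Csf1r*, *Itgam*, *Cd14* and *Fcgr1* are also in this list, had lower sums in *Sirt6* cKO. These sums were 5712 and 3291 CPM in WT against 2107 and 2231 CPM in *Sirt6* cKO. *Slc40a1* counts were 1.06% and 1.11% of that macrophage sum, most of which is *Lyz2*, in WT and 0.853% and 1.06% in *Sirt6* cKO. The part of macrophages in the value of *Slc40a1* was not tested.

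**Figure D5:**
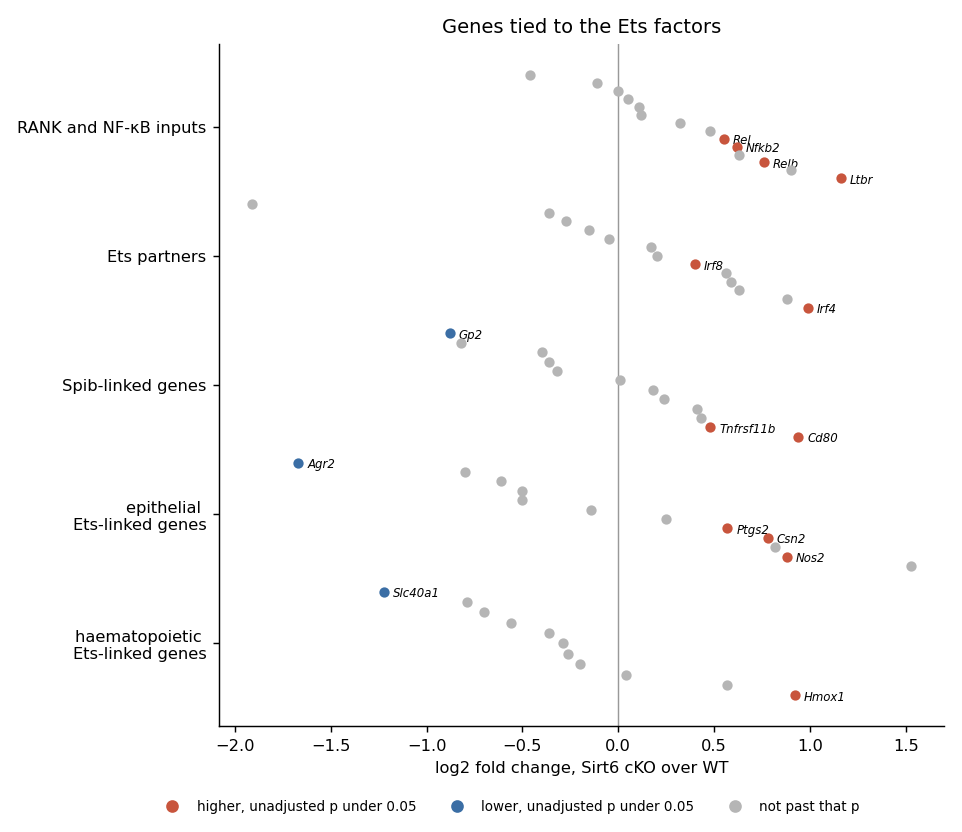
Log2 fold change (*Sirt6* cKO over WT) of the genes in 5 lists tied to the Ets factors, 1 point per gene tested, coloured where the unadjusted edgeR p was under 0.05. Among the *Spib*-linked genes *Cd80* at 0.94 and *Gp2* at -0.88 lie on opposite sides, and each called gene of the NF-κB route lies above 0.

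The genes whose pattern over the 4 libraries was nearest to that of *Spib* were *Klhl20*, *Uts2d* and *Slco1a5*, at Euclidean distances of 0.118, 0.123 and 0.134 between centred log2 CPM values. *Slco1a5* had 38.5 and 37.5 CPM in WT and 73.9 and 78.2 CPM in *Sirt6* cKO. *Sowahc*, *Cldn13* and *Alg11* were nearest to *Elf3*, at distances of 0.208, 0.221 and 0.235. *Sowahc* had 54.4 and 53.8 CPM in WT and 173 and 147 CPM in *Sirt6* cKO. Among 10408 genes with a mean of at least 10 CPM, 38 lay within a distance of 0.25 of *Spib* and 4 within that of *Elf3*. With 4 libraries these distances describe likeness in 2 levels and their spread and nothing further.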

How the data were processed

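RNA-seq of sorted mTECs was analysed from 4 libraries, 2 WT and 2 *Sirt6* cKO, grouped by GEO's genotype labels. Per the study's methods, reads were trimmed with Trim Galore, aligned to mm10 with HISAT2 2.1.0 and quantified with StringTie 1.3.3, with versions from the submitters' processing notes. The authors deposited whole-number counts per gene without normalization, and TPM values per library whose last line holds the column total and was left out. The gene annotation and the use of strand in counting are not given in the sources used here.

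Counts were scaled by TMM and tested with edgeR 4.0.16 (filterByExpr at 10 counts per library and 15 in total, glmQLFit, glmQLFTest) in R 4.3.3, with Benjamini-Hochberg adjustment over the 18547 genes that passed. DESeq2 1.42.0 and limma 3.58.1, on log2(TPM + pseudocount), served as alternatives, beside other scalings, filters, the replicate number as a block and each library left out. An exact permutation test of 2 libraries against 2 cannot go below 0.333 (two-sided), so none is given. Distances used log2 CPM with a prior count of 2. No pair of libraries was alike within sampling noise (chi-square per gene of 161 or more). The members and all lists were chosen with earlier results of these data known. The text names all members, *Sirt6*, *Cd80*, *Tnfrsf11b*, the 3 genes nearest to *Spib* and to *Elf3*, and up to 4 genes in each direction by p among those of each list with an unadjusted p under 0.05. Genes named outside this rule are marked as such or named where a small count called them. *Spi1* and *Adgre1* were found as *Sfpi1* and *Emr1* through RefSeq synonyms, and *Sprr2a3* was not matched. Positions are from GENCODE M21 on GRCm38. The procedure was tested on simulated data.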

Additional observations from a re-analysis of the deposited data

How the results depend on the processing

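*Spib*, *Elf3*, *Ehf*, *Spi1*, *Spic* and *Ets1* kept their direction under all 12 alternatives. The groups of these genes did not overlap, so leaving out a library could hardly reverse them. The contrast also chose the members, and nothing is read from the kept directions. Reversals were limited to 4 members whose groups overlapped. *Elf5* turned to 0.55 without WT 2, *Spdef* to -0.01 without *Sirt6* cKO 1 and *Ets2* to -0.04 without WT 1, while *Elf1* turned to -0.01 with upper quartile scaling, to -0.01 with library size alone and to -0.09 without WT 2 (log2 fold changes). Over the libraries left out, these values ran from -2.25 to 0.55, -0.01 to 0.36, -0.04 to 0.26 and -0.09 to 0.25 in that order. Leaving out 1 library at a time gave between 0 and 3 members called lower, 0 to 2 other family genes, 1 to 5 NF-κB inputs, 1 to 4 partners, 2 to 5 epithelial and 1 to 4 haematopoietic linked genes, and over all genes 394 to 1152 higher and 332 to 828 lower. DESeq2 called 2 other family genes and 1 partner. The NF-κB inputs called were 2 with limma at a TPM pseudocount of 1 and 2 at 0.1. Partners called were 1 with the TPM filter of 0.1, 1 with upper quartile scaling, 1 with library size alone and 1 with limma at a pseudocount of 1. Epithelial linked genes called were 2 with upper quartile scaling, 2 with library size alone, 2 with limma at a pseudocount of 1 and 1 at 0.1. The causes of these changes were not tested, and with a library left out a fit rests on 3 libraries. Limma put 48.1% and 46.5% of its calls on the higher side with pseudocounts of 1 and 0.1.

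Replicate numbers are shared by the genotypes only as numbers. Same-numbered libraries had a correlation of -0.05 between their deviations from the group means, which does not pair them. With the replicate number as a block, 3 members were called higher and 1 lower, 1 partner was called in place of 2, and over all genes 697 were higher and 449 lower. Depth did not limit the members, as the lowest count of any was 110, but 2 libraries per group limit each error given.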

Other observations

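*Ehf* and *Elf5* are neighbours on chromosome 2 of GRCm38, *Ehf* from 103263433 to 103303278 on the minus strand and *Elf5* from 103411688 to 103450989 on the plus strand. They lie 108409 bases apart with 0 protein-coding genes between them. Their levels differed widely, at 134 ± 4.96 TPM for *Ehf* and 6.79 ± 7.29 TPM for *Elf5* in WT and at 181 ± 7.62 TPM and 2.42 ± 0.155 TPM in *Sirt6* cKO (mean ± SD, n = 2). The WT library with the higher *Elf5*, WT 2, held the lower *Ehf* of the pair, at 130 TPM against 137 TPM in WT 1.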
